A study of Mus musculus with 6 samples.

Results

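The genes described here encode the machinery that cuts cytosolic proteins into peptides and loads them onto major histocompatibility complex (MHC) class I molecules. They are the class I heavy chain genes H2-K1 and H2-D1, the light chain gene B2m, the peptide transporter genes Tap1 and Tap2, the loading chaperone gene Tapbp, the immunoproteasome genes Psmb8, Psmb9 and Psmb10, and Nlrc5, which encodes a transactivator of class I genes. They were taken as the probe sets listed with 1 of these 10 genes and no other. That gave 10 probe sets of 41345 and 9 genes of 22180 with a probe set of their own. H2-D1 has no probe set listed with it alone, so no level is given for it.

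RNA came from RAW 264.7 cells, a mouse macrophage-like line of BALB/c origin, 48 h after lipid-mediated transfection with 50 nM of a GapmeR. A GapmeR is an antisense oligonucleotide with locked nucleic acid bases, and RNase H cuts the RNA it pairs with. Mist-targeted cells (3 arrays) received a GapmeR against Mist, a long noncoding RNA of macrophages, and Control cells (3 arrays) received a non-targeting GapmeR. Both groups therefore share the line, the transfection and the oligonucleotide chemistry, and neither is an untransfected sample. The labels name 1 GapmeR against Mist, and Mist itself was not measured by a named probe set. The comparison asks what differs in class I loading when Mist is targeted.

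Class I molecules show peptides from inside the cell to CD8+ T cells. Proteasomes produce the peptides, the TAP transporter carries them into the endoplasmic reticulum, and tapasin holds an empty class I molecule beside TAP until a fitting peptide is bound. Interferons replace the catalytic subunits of the constitutive proteasome with those of the immunoproteasome, and they also raise TAP and the class I chains. In macrophages the immunoproteasome is present at rest and increases on activation.

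Class I heavy chain genes are known for a compact promoter in which an NF-kB site, an interferon response element and the elements read by NLRC5 and its partners lie close together. The promoter table of RefSeq (build GRCm38.p6, from C57BL/6J mice) holds 8 of the 10 genes. It covers 250 bases before and 50 after each start. The H2-K1, B2m and Tap1 promoters are shown because H2-K1 and B2m had the smallest differences of all measured members, while Tap1 had a larger one and shares its promoter with Psmb9. Capitals mark matches, on either strand, to the interferon response cores GAANNGAAA and GAAANNGAA, the gamma-activated site TTCNNNGAA, the kappaB sequence GGGATTCCC, the CCAAT box and the X2 core TGACG.
H2-K1 promoter, chr17:34000298-34000597, minus strand: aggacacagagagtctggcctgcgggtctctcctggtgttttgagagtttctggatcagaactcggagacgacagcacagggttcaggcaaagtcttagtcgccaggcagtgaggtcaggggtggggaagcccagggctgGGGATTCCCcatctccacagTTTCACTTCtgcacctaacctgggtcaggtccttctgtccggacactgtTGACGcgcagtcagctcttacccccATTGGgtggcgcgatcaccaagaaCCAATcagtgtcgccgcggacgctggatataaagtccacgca
B2m promoter, chr2:122147437-122147736, plus strand: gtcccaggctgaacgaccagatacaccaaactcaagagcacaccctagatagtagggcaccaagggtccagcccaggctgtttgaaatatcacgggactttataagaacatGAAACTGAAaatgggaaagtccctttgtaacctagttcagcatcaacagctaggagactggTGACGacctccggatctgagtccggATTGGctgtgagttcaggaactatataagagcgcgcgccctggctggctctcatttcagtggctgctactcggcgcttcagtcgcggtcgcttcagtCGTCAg
Tap1 promoter, chr17:34187306-34187605, plus strand: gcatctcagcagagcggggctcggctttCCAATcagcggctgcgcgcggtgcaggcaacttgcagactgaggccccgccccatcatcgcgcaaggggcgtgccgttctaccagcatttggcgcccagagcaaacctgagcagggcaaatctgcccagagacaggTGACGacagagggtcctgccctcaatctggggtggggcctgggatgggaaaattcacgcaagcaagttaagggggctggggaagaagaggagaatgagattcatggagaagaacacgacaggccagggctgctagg

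The H2-K1 window held GGGATTCCC 110 bases before the start, GAANNGAAA (on the other strand) 90 bases before it and TGACG 41 bases before it, counted at the first base of each match. RefSeq lists a second H2-K1 start close by, whose window holds the same matches. In the B2m window GAAANNGAA began 139 bases before the start and TGACG 78 bases before it. The Tap1 window held a CCAAT box and a TGACG and neither interferon core. Among the windows not printed, Psmb9 held CCAAT and TGACG, Psmb8 held TTCNNNGAA, Tapbp held CCAAT, and Psmb10 held no match. The H2-D1 window held GGGATTCCC, GAANNGAAA, CCAAT and TGACG, but H2-D1 has no level here. Whether the matches go with the differences was not tested. Of 32851 windows of this length, 7.52% held GAANNGAAA, 8.56% GAAANNGAA, 8.3% TTCNNNGAA, 0.353% GGGATTCCC, 37.4% CCAAT and 20.8% TGACG. No matches overlapped in the windows shown, and a match is a run of letters, not a bound site. RAW 264.7 cells carry the class I alleles of BALB/c mice, whereas these sequences are those of C57BL/6J.

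Values were log2 expression, and a difference is Mist-targeted minus Control. Arrays had medians of 4.47 to 4.50 over all probe sets, and correlated at 0.988 to 0.991 within groups and 0.986 to 0.989 between them. All 10 macrophage marker genes had means above every array median, Cd68 and Csf1r among them. Markers of other cells were mostly below it, with 0 of 7 T and NK cell, 0 of 5 B cell, 1 of 6 neutrophil, 1 of 6 fibroblast and 2 of 6 dendritic cell genes above. Mean levels of the macrophage list were 9.51 to 9.61 on Mist-targeted arrays and 9.55 to 9.60 on Control arrays. No marker of any of these lists was called in limma. By unadjusted p below 0.05, the macrophage genes Ptprc (-0.27 ± 0.084) and Cd14 (-0.28 ± 0.10) were lower and Adgre1 (0.23 ± 0.089) was higher, all with groups apart. The neutrophil gene Camp was lower by the same measure, at a level below the array median. The part of these markers in the results on class I genes was not tested. The labels do not say whether the replicates were grown apart, so the p values rest on differences between arrays that may be technical.

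Transporter and immunoproteasome genes had higher values on the Mist-targeted arrays, by 0.26 to 0.46 on the log2 scale, while H2-K1 and B2m differed by 0.044 and 0.072. All 9 measured members had a positive difference, against 51.7% of all probe sets, and their median was 0.30, against 0.0057 over all probe sets. In 6 of the 9 every Mist-targeted array lay above every Control array, which held for 8.2% of all probe sets. None passed the test over all probe sets (limma, adjusted p 0.11 to 0.95), so 0 of 9 were called, where 0.254% of probe sets were called in either direction and 0.128% as higher. At an unadjusted p under 0.05 the 6 genes were higher, against 4.77% of all probe sets. Members were not chosen at random and share regulation, so these shares describe the list and test nothing about it.

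**Figure D1:**
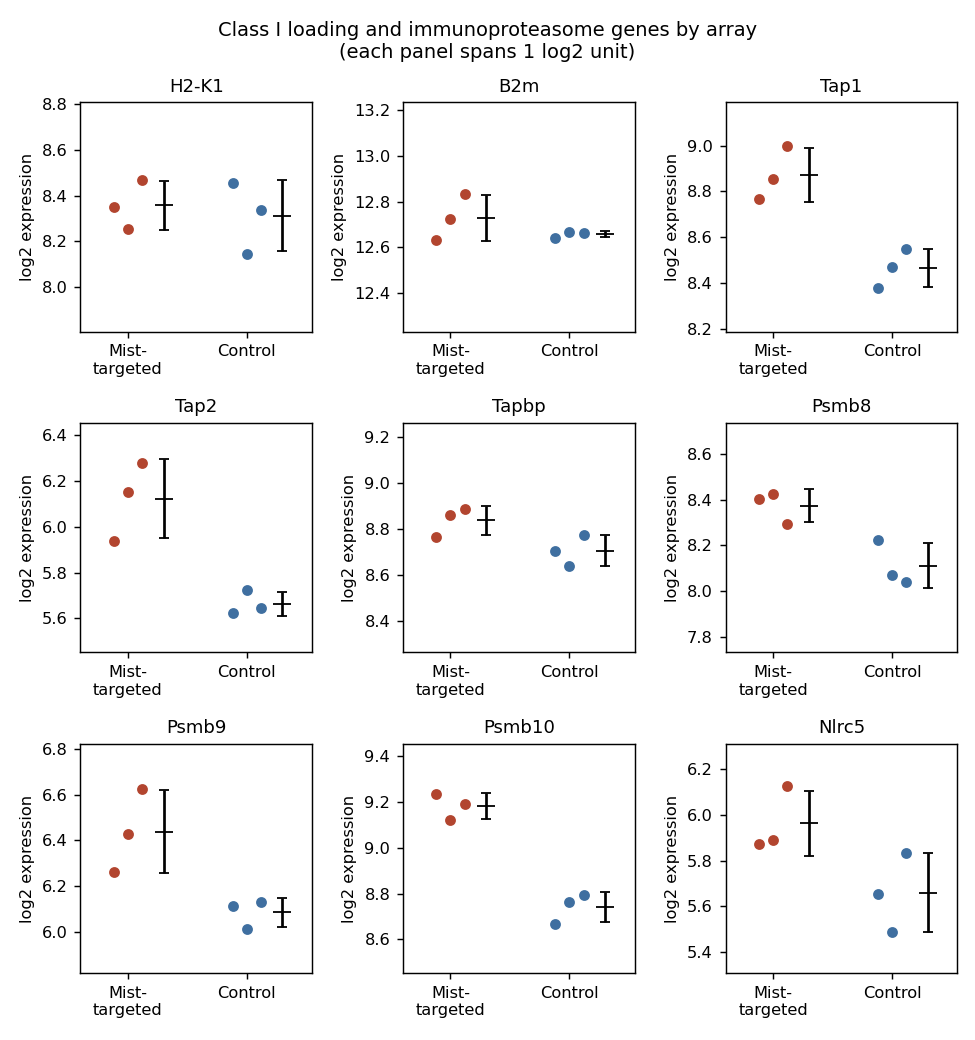
Log2 expression of the 9 measured genes on each array, 3 Mist-targeted (left, red) and 3 Control (right, blue) per gene, with mean and SD as black marks; every panel spans 1 log2 unit at its own level. The groups are apart for Tap1, Tap2, Psmb8, Psmb9, Psmb10 and Nlrc5 and overlap for H2-K1, B2m and Tapbp.

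Tap1 and Tap2 encode the subunits of the transporter that moves peptides into the endoplasmic reticulum. Tap1 had log2 values of 8.77, 8.86 and 8.997 on the Mist-targeted arrays, against 8.38, 8.47 and 8.55 on the Control arrays. Every Mist-targeted value was the higher, and the difference was 0.41 ± 0.096 (SE, n = 3 per group, 1.33-fold; limma, adjusted p = 0.18). For Tap2 the values were 5.94, 6.15 and 6.28 in Mist-targeted cells and 5.62, 5.72 and 5.64 in Control cells. These groups did not overlap either, with the largest difference among the members, 0.46 ± 0.11 (1.37-fold; limma, adjusted p = 0.17). The spread of Tap2 was wider with the Mist-targeted GapmeR, at an SD of 0.17 against 0.052 in Control cells.

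Tapbp encodes tapasin, the chaperone that bridges TAP and the class I molecule. Its brighter probe set read 8.77, 8.86 and 8.89 in Mist-targeted cells and 8.70, 8.64 and 8.77 in Control cells. The lowest Mist-targeted value lay just under the highest Control value, and the difference was 0.13 ± 0.084 (limma, adjusted p = 0.70). A dimmer probe set of the same gene read 5.60, 5.85 and 5.74 in Mist-targeted cells, against 5.23, 5.30 and 5.59 in Control cells. There the groups were apart by a narrow margin, with a difference of 0.36 ± 0.12 (limma, adjusted p = 0.38), so the 2 probe sets of Tapbp agree in sign and not in size.

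Psmb10, Psmb9 and Psmb8 encode the catalytic subunits beta2i, beta1i and beta5i of the immunoproteasome, which favour cuts that leave peptide ends suited to class I grooves. Psmb10 read 9.24, 9.12 and 9.19 in Mist-targeted cells and 8.67, 8.77 and 8.79 in Control cells. It had the smallest p of all members, with tight groups (SD 0.058 in Mist-targeted and 0.065 in Control cells) well apart, and a difference of 0.44 ± 0.083 (1.36-fold; limma, adjusted p = 0.11). Psmb9 read 6.26, 6.43 and 6.62 in Mist-targeted cells, against 6.11, 6.02 and 6.13 in Control cells. The Mist-targeted values were all higher but scattered (SD 0.18, against 0.063 in Control cells), with a difference of 0.35 ± 0.11 (1.27-fold; limma, adjusted p = 0.33). Psmb8 read 8.40, 8.43 and 8.29 in Mist-targeted cells and 8.23, 8.07 and 8.04 in Control cells. Its groups were apart as well, with the smallest difference of the 3, 0.26 ± 0.091 (1.20-fold; limma, adjusted p = 0.39).

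Nlrc5 encodes the NOD-like receptor family protein that acts as a transactivator of class I genes, B2m, Tap1 and Psmb9. It read 5.87, 5.89 and 6.13 in Mist-targeted cells and 5.66, 5.49 and 5.83 in Control cells. The groups did not overlap, although the lowest Mist-targeted and the highest Control value nearly met, and the difference was 0.30 ± 0.12 (1.23-fold; limma, adjusted p = 0.47).

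H2-K1 encodes a classical class I heavy chain and B2m the beta2-microglobulin light chain that every class I molecule needs. H2-K1 read 8.35, 8.25 and 8.47 in Mist-targeted cells and 8.45, 8.15 and 8.34 in Control cells. The groups overlapped fully, and the difference was 0.044 ± 0.11 (95% interval -0.21 to 0.30; limma, adjusted p = 0.95). B2m read 12.63, 12.72 and 12.83 in Mist-targeted cells, against 12.64, 12.67 and 12.66 in Control cells. Mist-targeted replicate 1 was below all Control arrays and the others were above them, and the difference was 0.072 ± 0.086 (95% interval -0.13 to 0.27; limma, adjusted p = 0.87). Both intervals still reach past the estimate for Psmb8, so they do not show that the chains were unaffected, and whether chains and peptide supply genes differ from each other was not tested. The H2-K1 difference turned to -0.039 without Control replicate 2 and to -0.011 without Mist-targeted replicate 3, and that of B2m was 0.020 without Mist-targeted replicate 3. Class I genes are near-identical to each other, so the H2-K1 probe set may also read related genes, and how its probes match the BALB/c alleles was not checked here.

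**Figure D2:**
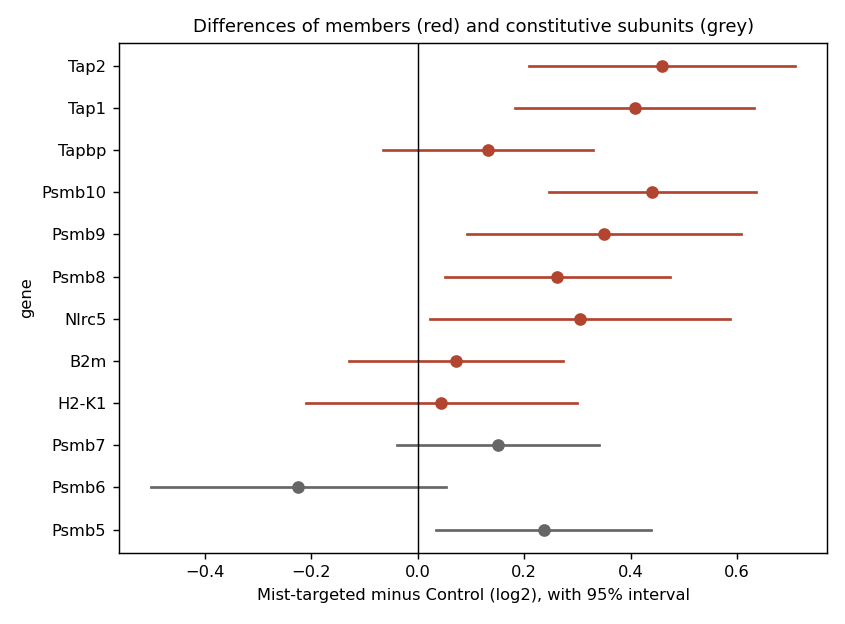
Difference in log2 expression, Mist-targeted minus Control, for the 9 measured genes (red) and the 3 constitutive catalytic subunits (grey), with 95% intervals from limma. Intervals of Tap1, Tap2, Psmb8, Psmb9, Psmb10 and Nlrc5 lie above 0, before any adjustment for the number of probe sets, and those of H2-K1, B2m and Tapbp include it.

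Calls differed between settings of the test. With only the 23521 probe sets that have 1 listed gene, Psmb10 (adjusted p = 0.017), Tap2 (0.032) and Tap1 (0.039) rose in limma, 3 of 9 members where 1.14% of those probe sets rose. With an intensity trend and robust moderation over all probe sets, Psmb10 alone rose among the members (limma, adjusted p = 0.039), where 0.283% of probe sets rose. Without the dimmest 40% of probe sets, 0 of 9 members were called (Psmb10 at a limma adjusted p of 0.076). The 8 members other than H2-K1 kept a positive difference whichever array was left out, with Psmb10 between 0.40 and 0.47, Tap1 between 0.34 and 0.46, Tap2 between 0.38 and 0.55 and Nlrc5 between 0.22 and 0.39. The median of the members, each set against its Control mean, was 0.21, 0.31 and 0.45 on the Mist-targeted arrays and -0.0027, -0.043 and 0.045 on the Control arrays.

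Psmb9, Tap1, Psmb8 and Tap2 follow each other on chromosome 17 with no other protein-coding gene between them in the RefSeq order. The Psmb9 and Tap1 starts face away from each other, 226 bases apart, and their promoter windows share 275 bases, so the Tap1 sequence printed above is also most of the Psmb9 promoter. All 4 of these neighbours had groups that did not overlap, with Mist-targeted higher, which held for 8.2% of all probe sets. The class II genes flanking them had smaller differences, 0.099 for H2-DMa, 0.16 for H2-DMb2 and -0.0062 for H2-DMb1 on one side, and 0.17 for H2-Ob, 0.055 for H2-Ab1 and -0.014 for H2-Aa on the other. H2-DMb2, H2-DMb1 and H2-Aa had means below the array median, where markers of other cell types also lie, and H2-Ab1 had means near it. Their small differences therefore cannot be set against those of the 4 neighbours. H2-Ob, which encodes a chain of an inhibitor of class II loading, was the flanking gene whose groups were apart (adjusted p = 0.65), at a mean near the array median. Psmb10 and Nlrc5 lie elsewhere, on chromosome 8, and B2m lies on chromosome 2.

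Each immunoproteasome subunit takes the place of a constitutive one, beta5i (Psmb8) that of Psmb5, beta1i (Psmb9) that of Psmb6 and beta2i (Psmb10) that of Psmb7. Psmb9 minus Psmb6 within an array was -2.17, -2.39 and -2.16 in Mist-targeted cells and -2.78, -2.92 and -2.75 in Control cells. The groups were apart, and the ratio was 1.49-fold higher in Mist-targeted cells (log2 change 0.57; exact permutation test, two-sided, p = 0.10, adjusted over 3 pairs 0.15). Part of this change came from Psmb6, which differed by -0.22 ± 0.12 and had its lowest value, 8.43, on Mist-targeted replicate 1. Without that array the change of the ratio was 0.54. Psmb10 minus Psmb7 was -0.40, -0.51 and -0.53 in Mist-targeted cells, against -0.91, -0.74 and -0.68 in Control cells. Again the groups were apart, with a change of 0.29 (1.22-fold; exact permutation test, two-sided, p = 0.10, adjusted 0.15). Psmb8 minus Psmb5 was -0.85, -0.91 and -1.10 in Mist-targeted cells and -0.80, -1.10 and -1.05 in Control cells. Here the groups overlapped, with a change of 0.026 (exact permutation test, two-sided, p = 1.0), since Psmb5 had a difference of 0.24 ± 0.086, close to that of Psmb8. An exact permutation test of 3 against 3 cannot give less than p = 0.10. A level of 1 probe set cannot be set against that of another, so only the changes of these ratios carry meaning.

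**Figure D3:**
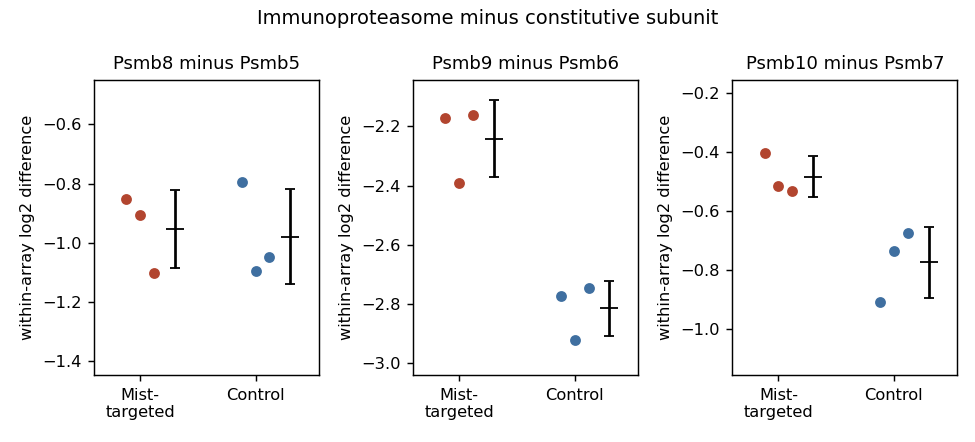
Within-array log2 difference between each immunoproteasome subunit and the constitutive subunit it replaces, on 3 Mist-targeted (left, red) and 3 Control arrays (right, blue), with mean and SD as black marks; each panel spans 1 log2 unit. Groups are apart for Psmb9 minus Psmb6 and Psmb10 minus Psmb7 and overlap for Psmb8 minus Psmb5.

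The other proteasome lists had medians closer to 0, although their largest positive differences, 0.24 for Psme1 and 0.24 for Psmb5, came near the 0.26 of Psmb8. Groups were apart and higher in 3 of 13 core subunits and 3 of 10 activator and assembly genes, against 8.2% of all probe sets. They were apart and lower in 1 and 0 genes of these lists. Among the activator and assembly genes 8 had a positive difference and 2 a negative one. Of 13 constitutive core subunits measured 0 passed (limma; 1 higher and 0 lower by unadjusted p below 0.05), with a median of 0.076, 10 above 0 and 3 below. Psmb6 had a difference of -0.22 ± 0.12 (adjusted p = 0.63) and Psmb7 one of 0.15 ± 0.082 (adjusted p = 0.64). Of 10 activator and assembly genes 0 passed (limma; 1 higher and 0 lower by unadjusted p below 0.05), with a median of 0.066. By the same unadjusted p, 4.77% of all probe sets were higher. The interferon-inducible activator subunits PA28 alpha and beta, Psme1 and Psme2, had opposite signs, at 0.24 ± 0.084 (limma, adjusted p = 0.38) and -0.30 ± 0.16 (limma, adjusted p = 0.63). The Psme2 probe set was dim, with means of 5.105 in Mist-targeted and 5.402 in Control cells. Those of the members Nlrc5 (5.963 and 5.659) and Tap2 (6.123 and 5.664) were not much brighter. Psme3, a related nuclear activator, differed by 0.21 ± 0.097 (adjusted p = 0.57).

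Other loading and presenting genes showed no common direction. Of 13 chaperone and trimming genes 0 passed (limma, 0 by unadjusted p below 0.05), and 7 were above 0 and 6 below, with a median of 0.030. Groups were apart and higher in 2 of these and lower in 1, where 8.2% of all probe sets were apart and higher. Erap1, the aminopeptidase that trims peptides in the endoplasmic reticulum, differed by 0.044 ± 0.079. The glucosidase II beta gene Prkcsh (-0.20 ± 0.092), the cytosolic peptidase gene Thop1 (0.21 ± 0.12) and the aminopeptidase gene Npepps (-0.15 ± 0.095) had the smallest p of this list. Of 13 other class I and class I-like molecules 0 passed (limma; 2 higher and 1 lower by unadjusted p below 0.05), with a median of 0.019. By the same unadjusted p, 4.77% of all probe sets were higher. Groups were apart and higher in 2 of these genes and lower in 2. H2-M3, which presents N-formylated peptides, differed by -0.44 ± 0.085 (adjusted p = 0.11), with all Mist-targeted arrays below all Control arrays. H2-Q10, a nonclassical class I gene, differed by 0.88 ± 0.23 at its brighter probe set (adjusted p = 0.22) and by 0.16 ± 0.10 at the other, and H2-Q4 by 0.33 ± 0.13 and -0.059 ± 0.16 at its own 2. Probes of such related genes can share targets. Of 11 class II presentation genes 0 passed (limma, 0 by unadjusted p below 0.05), with a median of 0.055. Groups were apart and higher in 1 of these and lower in 1. Only 6 of the 11 class II genes and 9 of the 13 other class I genes had means above every array median, as all 9 members did. The medians of these 2 lists therefore cannot be set directly against that of the members. Ciita, the class II counterpart of Nlrc5, differed by 0.056 ± 0.12, the lysosomal protease gene Ctss by -0.14 ± 0.079 and H2-Oa by 0.14 ± 0.11.

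**Figure D4:**
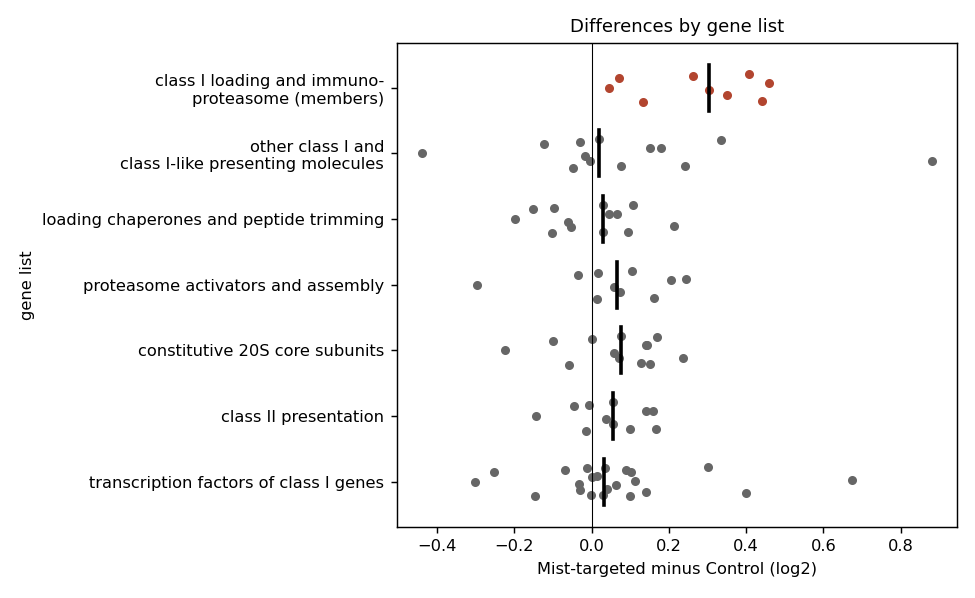
Difference in log2 expression, Mist-targeted minus Control, of each gene in the 7 lists (members in red, the others in grey), with the list median as a black bar. The member median is 0.30, and the medians of the other 6 lists lie between 0.019 and 0.076. Only 9 of 13 other class I and 6 of 11 class II genes have means above every array median, as all 9 members do.

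Among 22 genes for transcription factors and interferon signalling that act on class I genes, Stat2 rose and the others did not pass (limma; 3 higher and 0 lower by unadjusted p below 0.05). Over all probe sets 0.128% were called as higher and 4.77% were higher by unadjusted p. Groups were apart and higher in 4 of the 22 genes and lower in 2, where 8.2% of all probe sets were apart and higher. Stat2, a component of the complex that carries type I interferon signals to the nucleus, read 10.15, 10.09 and 10.11 in Mist-targeted cells and 9.44, 9.39 and 9.49 in Control cells. Its groups were far apart, with a rise of 0.67 ± 0.079 (1.60-fold; limma, adjusted p = 0.031). That call ended with the replicate block (adjusted p = 0.13), without moderation (0.083) and when any 1 array was left out (0.091 to 0.17), while the difference stayed between 0.65 and 0.70. Irf1, a factor that drives Tap1, Psmb9 and class I promoters, read 6.51, 6.28 and 6.46 in Mist-targeted cells, against 6.01, 6.04 and 6.0 in Control cells. These groups were apart too, with a difference of 0.40 ± 0.090 (limma, adjusted p = 0.16). Whether Stat2 or Irf1 has a part in the differences of the members was not tested. Irf2 differed by 0.30 ± 0.11 (adjusted p = 0.41) and Irf8 by -0.30 ± 0.13 (adjusted p = 0.54). Rfx5, a subunit of the complex through which NLRC5 and CIITA act on their promoters, differed by 0.035 ± 0.11. The median of this list was 0.032.

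Profiles were searched among the 11081 other genes with a mean over the 6 arrays at or above the median of all genes. The 5 most like the mean profile of the members were Bysl (Pearson r = 0.995), Was (0.995), Trim30d (0.993), Oas2 (0.993) and Zfp346 (0.991). These values describe 6 arrays that share the same 2 groups, and the search picks high values by construction. Oas2, an interferon-induced antiviral enzyme gene, differed by 0.25 ± 0.081, and Was, which encodes the actin regulator WASP of blood cells, by 0.29 ± 0.085. Bysl, a ribosome biogenesis gene, differed by 0.28 ± 0.090 and the zinc finger gene Zfp346 by 0.14 ± 0.079, whereas Trim30d, of the TRIM30 family, read 4.98, 5.10 and 5.52 in Mist-targeted cells and 3.996, 3.97 and 4.18 in Control cells. These Control values lie below the array median, where markers of other cell types also lie, so no exact size is given for Trim30d. Trim30d may have entered the search only through its Mist-targeted values. Its call (limma, adjusted p = 0.039) ended with the replicate block (0.12), without moderation (0.21) and when any 1 array was left out (0.088 to 0.19).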

How the data were processed

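The deposited values are log2 expression per probe set, which the authors made before deposit; RMA and Partek are named, without versions or roles, per the submitters' processing notes. Their settings and the genome build were not given in the sources used here. Because RMA makes array distributions alike, a shift shared by most transcripts would be reduced. Values were used as deposited.

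Probe sets were named from the platform annotation, and a gene was read at its brightest single-gene probe set. Differences come from limma 3.58.1 in R 4.3.3 (lmFit, eBayes, group as the only term, prior degrees of freedom 3.48), with Benjamini-Hochberg adjustment over all 41345 probe sets and a threshold of 0.05. Ratios of subunits were tested by exact permutation (SciPy 1.17.1). On data simulated for this comparison, 89 of 100 probe sets changed by 2 log2 units and 74 of 100 changed by 1 were called. In the same data 7 unchanged probe sets were called. Changes as small as those of the members (0.044 to 0.46) were not simulated, so these shares do not describe how often such changes are called. The number of arrays limits precision (median SE 0.11).

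The members, lists, tests and motifs were chosen with earlier results of these data known. Named genes are the members, their constitutive counterparts, Erap1, Psme1, Psme2, Irf1, Rfx5 and Ciita, per list the genes called (up to 4) and up to 3 others with the smallest p, and the 5 closest profiles, passing over predicted genes (Gm, Rik and LOC symbols). Genes flanking Psmb9 to Tap2 and the markers named were added after their values were seen. H2-D1, which has no probe set of its own, was left out.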

Additional observations from a re-analysis of the deposited data

How the results depend on the processing

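Tried in turn were a replicate block, trend and robust moderation, no moderation, a filter on the dimmest 40% of probe sets, listed probe sets only, quantile normalization, median centring, array weights, the mean of a gene's probe sets, and leaving out each array. The number of members called was 0 except with trend and robust moderation (1) and with listed probe sets only (3). The median of the members, 0.30, lay between 0.24 and 0.37 in every setting, a change smaller than the spread between replicates. Over all genes 92 were called, against 0 with the replicate block, 0 without moderation, 241 with trend and robust moderation, 140 without the dimmest probe sets, 677 with listed probe sets only, and 1 to 34 leaving out an array. The cause was not tested for any setting, and the last one also has fewer arrays. Leaving out arrays, H2-K1 ranged from -0.039 to 0.11. Psmb8 minus Psmb5 ranged from -0.033 to 0.118 and was negative without Control replicate 2, Control replicate 3 or Mist-targeted replicate 1. Same-numbered arrays deviated from their group means with correlations of 0.20, 0.096 and 0.033, which did not all pass the limit of 0.1 set for taking the numbers as pairs, although 5 of 6 arrays correlated best with their own number; with the replicate block the adjusted p of Psmb10 was 0.23.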
